A study of Capra hircus with 12 samples.

Results

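The secondary hair follicles of cashmere goats in February, in telogen, were compared with those in December, in catagen. The comparison rests on 4 of the 12 libraries of the series, 1 female and 1 male library in each of the 2 months. All goats (Capra hircus) were 1.5 years old, and no treatment or genotype is named in the labels. The other 8 libraries, 1 female and 1 male in May and September (anagen), November (catagen) and March (telogen), entered the fit so that the error of each gene came from all 6 months of 2 samples. March, the other telogen month, served to ask which February changes were also present there. Whether a library holds 1 animal or a pool is not stated, so p-values measure the spread between these libraries.

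Secondary follicles make cashmere, the fine undercoat, and run through an annual cycle. In anagen the matrix at the base of the follicle divides and builds the shaft and its sheaths. In catagen the lower follicle regresses by cell death, and in telogen the follicle rests around a club hair. Stem cells are then held in the bulge and hair germ until Wnt and hedgehog signals between epithelium and dermal papilla start a new cycle. Secondary follicle samples can also hold epidermis, sebaceous gland, vessels, nerve and immune cells. In bulk libraries such as these, fewer cells of a type and less RNA per cell cannot be told apart.

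The deposited values carry a TPM heading, and read depth is unknown. Follicle markers were high in all 4 libraries. The keratin gene KRT14, of basal cells, had values of 4799 and 4628 in December (female, then male, here and below) and 3959 and 4517 in February, and the inner root sheath gene TCHH had 5521 and 4358 in December and 3624 and 4400 in February. Genes with a value above 0 numbered 19276 and 18637 in December and 19946 and 20034 in February. Transcripts of the mitochondrial genome took 3.34% ± 0.241 (SD, n = 2) of the signal in December and 10.3% ± 0.556 in February, and transcripts of cytosolic ribosomal proteins took 23.1% ± 2.96 and 14.7% ± 1.62. In March the mitochondrial share was 11.8% in the female and 4.63% in the male, the latter nearer to December than to February. Groups did not overlap for these 3 measures, but 2 samples against 2 cannot reach an exact two-sided permutation p below 0.333, which was the value for each.

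**Figure D1:**
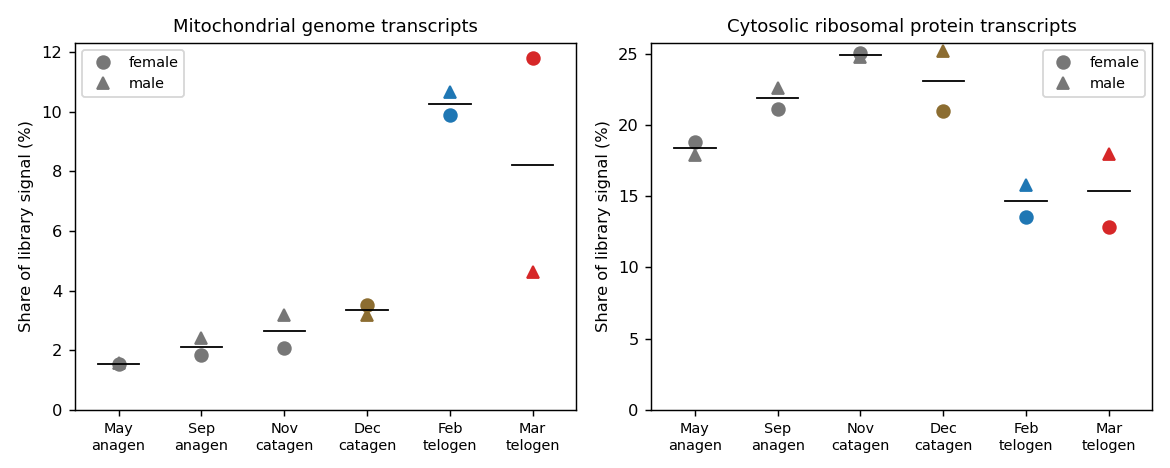
Share of each library's signal (%) from transcripts of the mitochondrial genome (left) and of cytosolic ribosomal proteins (right) in the 6 months; circles are female and triangles male libraries, and a bar marks the mean of 2. February lies above December on the left and below it on the right, and the March male lies at 4.63% on the left, near the December libraries.

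Of 16095 genes tested, 2671 passed at adjusted p < 0.05 (16.6% of those tested), 1433 higher in February (8.90%) and 1238 lower (7.69%). The median log2 difference of all tested genes was 0.07. At a difference of at least 2-fold, 356 genes were higher and 329 lower. Scaling every library to the same sum without mitochondrial and ribosomal protein genes gave 1008 higher and 1589 lower, so the split between directions depends on the scaling. Of the genes named below, CCND1, CIART, COX1, DDX58, GATA3, HOXA3, HSPB1, MCM6, MYLPF, PPARG, RORA, S100A7A, TP63, ZFP36 and C3H1orf68 did not pass after quantile normalization. After scaling to a common sum, with or without mitochondrial and ribosomal protein genes, further calls ended for ACSS1, AURKA, BCL2L1, CD93, DGAT2, EGFR, ELL2, FAM171B, GLI3, JUN, NOP10, NOTCH1, PLIN1, PRX, SYNPO2 and TGFB2. Adjusting the fit for sex ended further calls for ATP5A1, COL4A2, CTNNB1, ENO1, ID1, ID3, KRT8, MMP1 and WNT11. The count also depended on single libraries. Leaving out the female of December gave 42 and leaving out its male 19, and leaving out the female of February gave 970 and its male 22; the lone library left is then taken to vary like the others. It was 1544 without either May library, 1752 and 1750 without the September female or male, and 4468 and 4393 without the March female or male. Of the 174 genes chosen for naming that passed, 6 kept their call in every one of these fits and every other alternative, namely RRP1, RRP12, RRP1B, RRP36, RRP7A and LOC106503204. In the fits without a December library or the February male, no gene list described below other than the RRP genes had more than 1 member passing in a direction.

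March against December gave 107 genes (0.665%), 67 higher (0.416%) and 40 lower (0.249%). Of the 2671 February changes, 104 were also called in March in the same direction, 66 higher and 38 lower, which is 3.89% of the February list and 97.2% of the March list. In March 1428 of the 1433 rises and 1238 of the 1238 falls had the same sign as in February. Both March libraries lay beyond both December libraries in the February direction for 2525 of the 2671 changes (94.5%). A change not called in March is therefore not shown to be absent there. Both comparisons use the same December libraries, so these counts are a description. The median difference of the 1433 genes higher in February was 0.78 in February and 0.59 in March, and that of the 1238 lower genes was -0.81 and -0.58. Without the March male the count also called in March was 2330 of 4393, and without the March female 398 of 4468. It was 11 without either December library, 58 and 17 without the February female or male, and 26 to 27 without a library of May or September. Scaling each library to the same sum gave 469, and doing so without mitochondrial and ribosomal protein genes gave 159. Tested directly, March and February differed in 1 gene (0.00621%), with 636 at an unadjusted p below 0.05. The comparison of March with November, which shares no library with February against December but shares its error estimate, gave 2762 genes (17.2%). Of these, 1647 were called in February against December in the same direction, which is 61.7% of the February list and 59.6% of the March list. December against November gave 0 genes by limma (588 at an unadjusted p below 0.05).

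The transcripts of the mitochondrial genome, which encode the core subunits of the respiratory chain, were among the largest rises. Of its 13 protein genes, 11 were higher in February and 0 lower (84.6% passed, against 16.6% of all tested genes). The median log2 difference was 2.12. ND1 (gene 1485856), a subunit of complex I, had values of 482 and 407 in December and 3268 and 3858 in February. Both February libraries lay above both December libraries, and the log2 difference was 3.0 ± 0.68 (SE, n = 2 per group; adjusted p = 0.0255). ND4, ND2, ND6 and ND5, of the same complex, rose by 2.71, 2.63, 2.56 and 2.12 on the log2 scale. CYTB of complex III rose by 2.31, ATP6 of the ATP synthase by 2.51 and COX1 of complex IV by 1.97. COX2 and ND3 did not pass, with 9236 and 9359 in December and 15225 and 19077 in February for COX2. In March the female was as high as February for ND1 (3607) and the male near December (548), and none of the 13 genes passed by limma in March against December (8 at an unadjusted p below 0.05).

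The nuclear genes of the respiratory chain did not move with them. Of 68 tested, 0 were higher and 19 lower in February (27.9% passed, against 16.6% of all tested genes). The median log2 difference was -0.41. ATP5A1, the alpha subunit of the ATP synthase, had 321 and 386 in December and 187 and 228 in February (-0.77 ± 0.23, adjusted p = 0.0499). NDUFA6, NDUFB10 and NDUFB7, accessory subunits of complex I, fell by 0.75, 0.87 and 0.89 on the log2 scale. Of 26 genes for import of proteins into mitochondria, 8 fell and 0 rose (30.8% passed). TOMM7, a small subunit of the outer membrane translocase, had 153 and 206 in December, 46.4 and 53.2 in February, and 40.8 and 79.9 in March. Of 77 mitochondrial ribosomal protein genes, 25 fell and 0 rose (32.5% passed, median -0.47). MRPL23 had 153 and 178 in December against 45.0 and 66.9 in February, and MRPL41 had 108 and 134 against 45.2 and 45.7. February and December libraries did not overlap for any gene named in this paragraph, all of which were named after passing. Both February libraries lay below both December libraries for 28.4% of all tested genes. Among the genes of the 3 lists, PAM16 of the import motor was the only one called in March as well, with 40.9 and 53.9 in December, 18.6 and 28.2 in February and 13.6 and 19.7 in March.

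Genes named for rRNA processing were among the largest falls, with small errors. The proteins of the RRP genes help cut and modify ribosomal RNA in the nucleolus. Of 8 tested, 7 were lower in February and 0 higher (87.5% passed, against 16.6% of all tested genes). All 7 were also called in March. RRP7A (gene 102172876) had 14.6 and 14.6 in December, 1.08 and 0.98 in February and 0.94 and 1.94 in March. RRP12 (gene 102170662), which acts in ribosomal subunit export, had 15.8 and 12.5, then 1.17 and 1.13, then 1.73 and 2.04. RRP36 (gene 102172581) had 26.3 and 25.2, then 5.03 and 4.18, then 4.35 and 3.50, and RRP1 (gene 102169138) had 27.8 in both December libraries, then 3.57 and 4.04, then 3.12 and 5.87. These 4 genes sat on 1 level from May to December and on another in February and March, with no overlap. RRP7A ranged from 12.2 to 18.7 in the 6 libraries before December. The log2 differences between February and December were -2.94 ± 0.22 for RRP7A (adjusted p = 0.000357), -2.81 ± 0.16 for RRP12 (adjusted p = 3.77e-05), -2.26 ± 0.14 for RRP36 and -2.58 ± 0.21 for RRP1. The log2 difference was -1.83 for RRP1B, -1.99 for RRP9 and -1.04 for RRP15. RRP8, a methyltransferase of the same name series, had 24.1 and 22.5 in December and 19.9 and 22.04 in February and did not pass (adjusted p = 0.408). The number of RRP genes lower in February was 5 to 7 in every alternative fit. The RRP genes follow each other in an alphabetical list of symbols. RRNAD1, which precedes them there, fell as well (-1.37), and RRS1, which comes after them, fell by less (-0.82). Whether this order has a part in the result was not tested.

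**Figure D2:**
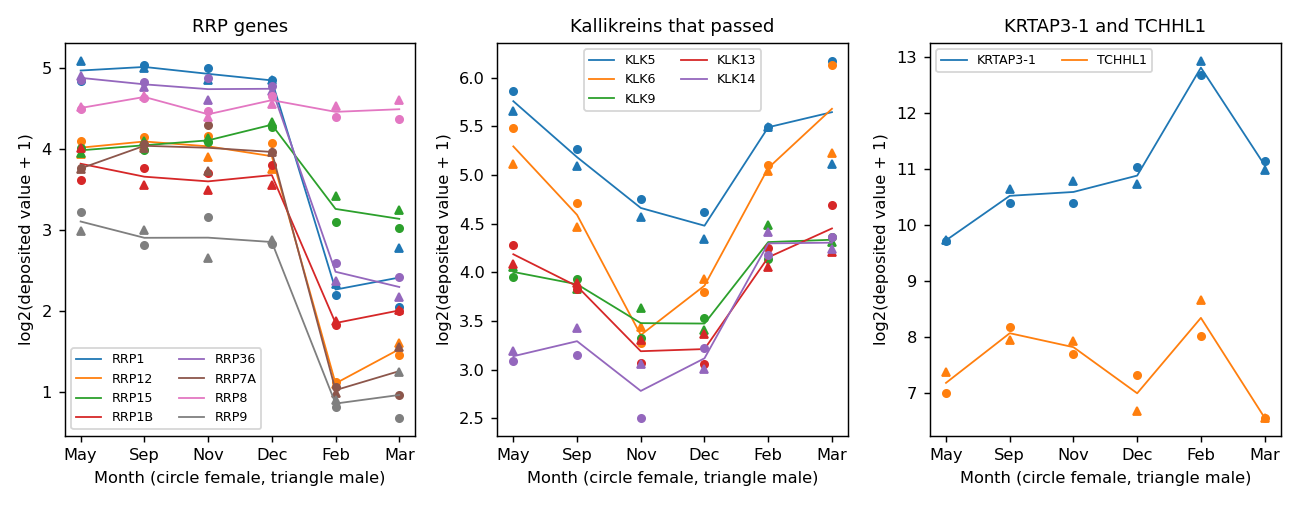
Values of RRP genes (left), of the 5 kallikrein genes that passed (centre), and of KRTAP3-1 and TCHHL1 (right) as log2(deposited value + 1) in the 6 months; circles are female and triangles male libraries, and lines join month means. The 7 RRP genes other than RRP8 lie low in February and March alike, while KRTAP3-1 and TCHHL1 are highest in February and lower again in March.

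Some genes of cytosolic ribosomal proteins and of ribosome assembly were lower too, by less in the median. Of 80 cytosolic ribosomal protein genes, 18 fell and 0 rose (median -0.70), so 22.5% passed, against 16.6% of all tested genes. The summed value of all 82 listed genes, tested or not, was 207930 and 261620 in December and 132610 and 169830 in February. RPL39 had 503 and 837 in December and 97.4 and 144 in February, and it had ranged from 502 to 1836 in the 6 earlier libraries. RPLP2, of the stalk of the large subunit, fell by 2.18 and RPS12 by 1.60. RPL22 was the member also called in March, with 2056 and 2609 in December, 644 and 782 in February and 578 and 832 in March. Many ribosomal protein genes have near-identical processed copies among which reads can be split, so values of single members are uncertain. Of 43 further genes for ribosome assembly, 13 fell and 2 rose (34.9% passed). Fibrillarin (FBL), which methylates rRNA, had 148 and 153 in December and 89.5 and 91.5 in February (-0.73 ± 0.20). NOC4L rose, with 59.2 and 48.1 in December and 90.7 and 146 in February, as did NOP10, with 119.7 and 121 against 186 and 195.

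**Figure D3:**
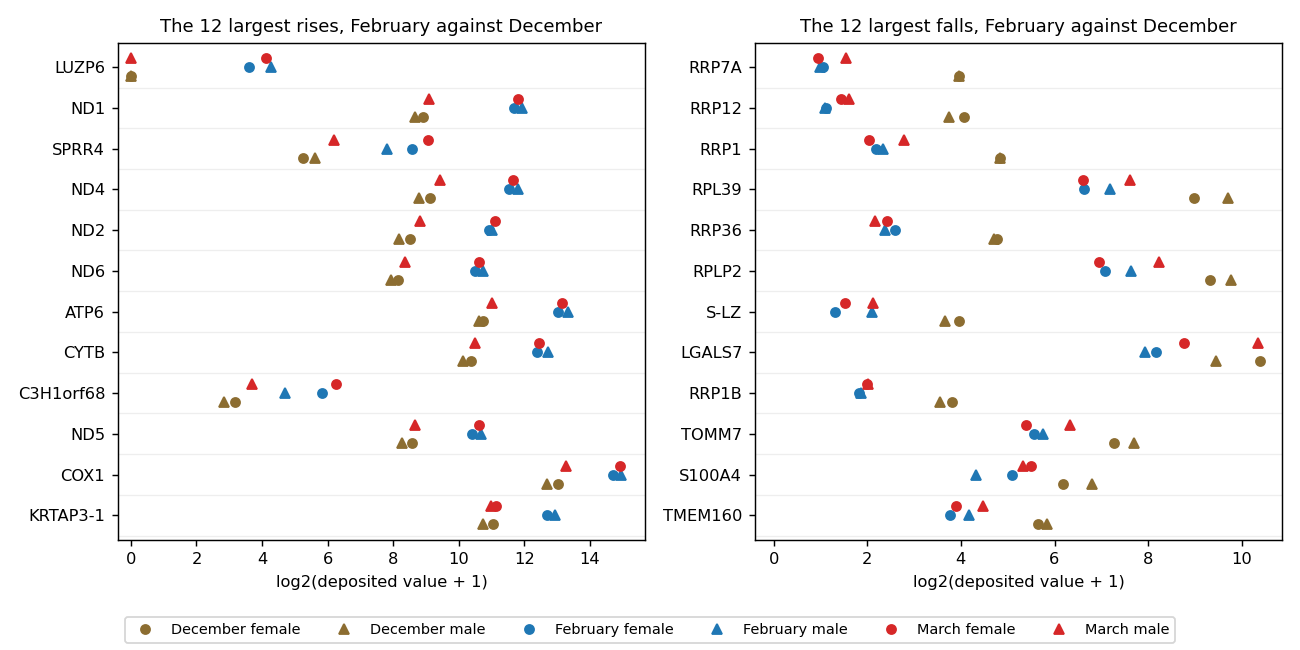
Values of the 12 largest rises (left) and the 12 largest falls (right) between December and February as log2(deposited value + 1), with both March libraries; circles are female and triangles male. February and December do not overlap for any of them, since the choice required it, and the March male lies near December for the mitochondrial genes, SPRR4 and LGALS7.

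Genes of protein turnover and of intermediary metabolism also moved, mostly downward. Of 38 proteasome genes, 10 fell and 2 rose (31.6% passed, against 16.6% of all tested genes). PSMB1, a subunit of the catalytic core, had 192 and 219 in December and 109 and 134 in February (-0.75 ± 0.21). PSMD10, which encodes the assembly chaperone gankyrin, rose, with 327 and 274 against 656.5 and 954 (1.40 ± 0.22), and was 579 and 742 in March. Of 19 glycolysis genes, 5 fell and 0 rose (26.3% passed), among them PGK1 (-0.74), ENO1 (-0.63) and TPI1 (-0.58). Cholesterol synthesis had 6 lower and 0 higher members among 21 (28.6% passed). FDPS, which makes farnesyl diphosphate, had 106 and 116 in December and 54.1 and 52.8 in February, and MVD, which acts earlier in the pathway, fell by 1.10. HSPD1, the mitochondrial chaperonin, fell (79.7 and 80.5 against 41.4 and 40.7), as did HSPA5 of the endoplasmic reticulum. HSPB1, a small heat shock protein, rose (686 and 451 against 1549 and 1205). Among 19 heat shock chaperone genes, 2 rose and 2 fell, so 21.1% passed, against 16.6% of all tested genes.

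In the fit of all 12 libraries, few hair structural genes passed, in both directions. Of 8 hair shaft keratins, 1 fell and 0 rose, so 12.5% passed, against 16.6% of all tested genes. Both February libraries lay below both December libraries for 6 of the 8 (28.4% of all tested genes did so, and 37.9% had both above). Fitting the 4 compared libraries alone, or leaving out both March libraries, gave 5 of 8 lower. KRT36 had 28.1 and 23.1 in December and 11.2 and 10.7 in February (-1.15 ± 0.31, adjusted p = 0.0348). Of 12 inner root sheath genes, 2 rose and 0 fell (16.7% passed), while the median of the list was -0.34. Only the 2 risers had a positive difference, and both February libraries lay below both December libraries for 9 of the 12. The risers were TCHHL1, a relative of trichohyalin, and GATA3, a transcription factor of the sheath. TCHHL1 (gene 102189362) had 159 and 101.1 in December, 259 and 405 in February and 93.6 and 93.2 in March. Its log2 difference was 1.35 ± 0.26 (adjusted p = 0.0199) in February and -0.44 in March (adjusted p = 0.29). GATA3 rose by 0.51, from 64.1 and 51.2 to 90.4 and 74.6.

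KRTAP3-1 (gene 100861180), a high-sulphur protein of the hair shaft matrix, rose in February, while March against December did not pass. Its values were 2103 and 1701 in December, 6595 and 7860.2 in February and 2269 and 2038 in March. February exceeded all 10 other libraries, in which it ranged from 844 to 2269. The log2 difference from December was 1.93 ± 0.26 (adjusted p = 0.0111) in February and 0.19 (adjusted p = 0.66) in March, and March against February did not pass (adjusted p = 0.181). KRTAP11-1, another hair shaft matrix gene, had 5304 and 5301 in December, 4668 and 7043 in February and 1960 and 5597 in March and did not pass.

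The neighbours of KRTAP3-1 were then examined, a choice made after these values were seen. In the gene order of the RefSeq goat assembly ARS1.2, 44 genes lie between the keratin genes KRT40 and KRT38 on chromosome 19, of which 42 were tested. All of them but KRTAP3-1 carry LOC numbers. In February 11 were higher and 0 lower, by 1.45 to 1.93 on the log2 scale. All 11 lay above the 10 other libraries in both February libraries. Since these 11 were picked for being higher in February, the 5.84% of all tested genes that did so is no baseline for them. In March 0 of the 42 were called against December by limma (9 at an unadjusted p below 0.05). For 28 of the 42 both March libraries lay below both February libraries (10.8% of all tested genes did so). LOC106503204 was the gene that differed between March and February. It had 56.6 and 49.96 in December, 173 and 164 in February and 56.7 and 53.1 in March, a fall of 1.60 on the log2 scale from February to March (SE 0.154, adjusted p = 0.0187). LOC102170546 followed the same course at a higher level, with 1045 and 898, then 2570 and 2770, then 860 and 1090. At the KRT38 end of the interval, LOC102179881 had 2404 and 2549 in December, 859 and 1406 in February and 351 and 1386 in March and did not pass. Near-identical copies in such a cluster can share reads, and the counting could split them, so the values of single genes are uncertain.

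**Figure D4:**
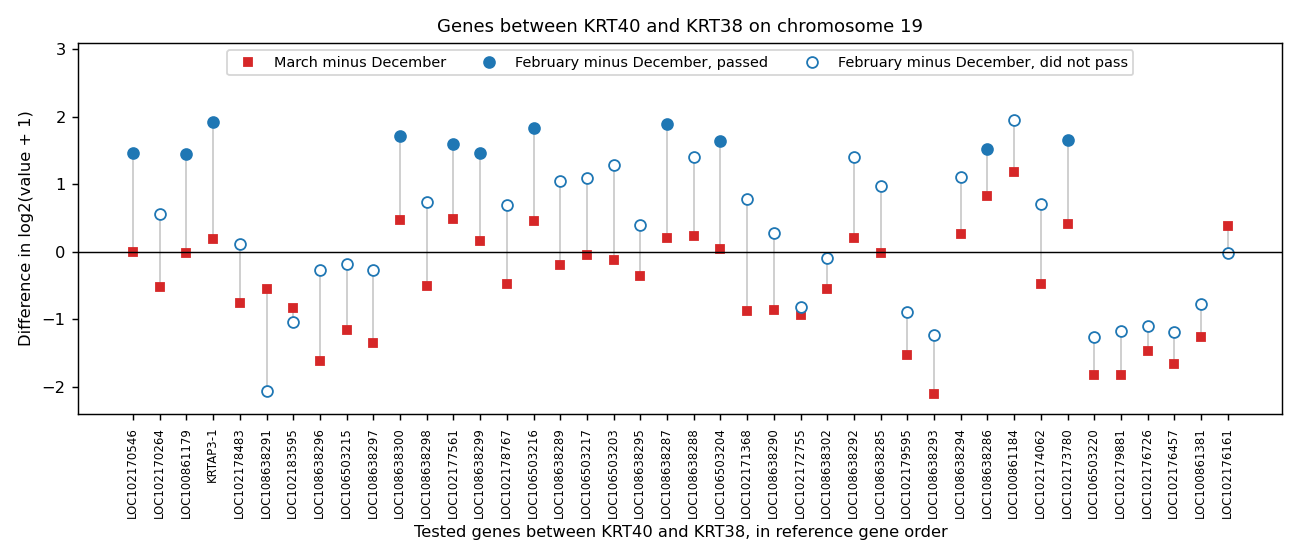
Differences in log2(value + 1) from December for February (circles, filled where the gene passed) and March (squares) for the 42 tested genes between KRT40 and KRT38, in reference gene order and not to scale. The 11 filled circles lie between 1.45 and 1.93, and no square belongs to a gene called in March.

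Genes of the outermost epidermal layers rose in part. Kallikreins are the serine proteases that cut the junctions of shedding corneocytes. Of 14 kallikrein and inhibitor genes, 5 rose and 0 fell (median 0.55), so 35.7% passed, against 16.6% of all tested genes. In March 4 of the 5 were also called, where 0.416% of all tested genes were called higher. KLK6 (gene 102178298) had 12.9 and 14.2 in December, 33.4 and 31.9 in February and 69.2 and 36.4 in March, after 43.6 and 33.5 in May and 8.68 and 9.82 in November. Its log2 difference was 1.21 ± 0.25 in February (adjusted p = 0.0221). KLK14 (8.34 and 7.05 against 17.1 and 20.3), KLK9 (10.6 and 9.64 against 16.6 and 21.4) and KLK13 (7.34 and 9.28 against 18.0 and 15.7) were higher in both months. KLK5, which activates other kallikreins, had 23.6 and 19.2 in December and 44.0 and 43.9 in February and was not called in March (adjusted p = 0.068). SPRR4, a cornified envelope precursor, had 37.1 and 47.7 in December, 383 and 222 in February, and 538 in the March female but 71.7 in the March male. C3H1orf68, which encodes a skin-specific protein of the epidermal differentiation complex, had 8.09 and 6.15, then 55.7 and 25.2, then 76.2 and 12.07. PPL and EVPL, the plakins of the envelope, fell by 0.94 and 0.96. With SPRR4 they were the members that passed among the 17 cornified envelope genes (17.6%, against 16.6% of all tested genes). PKP3, a desmosome plaque protein, fell from 105 in both libraries to 41.1 and 37.7, the 1 of 12 desmosome genes to pass. KRT8, a keratin of simple epithelia, fell from 82.8 and 71.9 to 38.4 and 40.1, the 1 of 17 epidermal and outer root sheath keratins to pass.

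Of 17 S100 genes, which encode small calcium-binding proteins, 3 rose and 2 fell. That is 29.4% of them, against 16.6% of all tested genes. S100A11 rose from 386 and 308 to 993 and 1185, and was 1033 and 541 in March. S100A7A (gene 102173556), an antimicrobial protein of stressed epidermis, was at 0 and 0.41 in December, 7.92 and 1.47 in February and 21.1 and 10.7 in March. It was called in both months, and in May and September it had ranged from 132 to 384. S100PBP, which encodes a binding partner of S100P and was caught by the name pattern, rose by 0.57. S100A14 and S100A4 fell by 1.43 and 1.79. LGALS7, a galectin of stratified epithelia, fell from 1348 and 697 to 288 and 243, and in March was 435 in the female and 1303 in the male. LUZP6 was listed at 0 in both December libraries and in the 6 earlier ones, at 11.04 and 18.4 in February and at 16.2 and 0 in March. LUZP6 overlaps another gene in other mammals, so its reads may not be its own.

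Members of signalling pathways moved mostly by less than 2-fold. Of 52 Wnt genes, 3 rose and 7 fell, so 19.2% passed, near the 16.6% of all tested genes. The share was 23.8% for Notch, 14.3% for hedgehog and 14.3% for IGF genes. It was 7.5% for BMP and TGF-beta and 7.14% for EGF genes. The transcription factor genes TCF7L2 (22.1 and 21.6 against 49.0 and 45.8) and TCF7 (7.97 and 7.82 against 13.5 and 12.6) rose. CTNNB1, which encodes beta-catenin, fell from 364 and 430 to 207 and 238, and the ligand gene WNT11 from 32.3 and 31.6 to 13.5 and 17.2. AXIN2, a feedback inhibitor that is itself a Wnt target, fell from 13.1 and 10.5 to 6.90 and 5.18 (-0.86 ± 0.16, adjusted p = 0.0189). Of 21 Notch genes, 0 rose and 5 fell, among them the receptors NOTCH1 (-0.66) and NOTCH3 (-0.82) and the ligands JAG1 (-0.68) and JAG2 (-0.96). Of 40 BMP and TGF-beta genes, TGFB2 rose (0.52), and the BMP targets ID1 (-0.64) and ID3 (-1.06) fell. Neither ID1 nor ID3 passed when the fit was adjusted for sex. Of 14 hedgehog genes, the ligand gene DHH (7.25 and 7.54 against 14.7 and 16.0) and the transcription factor gene GLI3 (11 and 9.33 against 16.2 and 16.1) rose and none fell. EGFR, the 1 of 14 EGF family genes to pass, rose by 0.51. Of 14 IGF genes, IGFBP6, which binds insulin-like growth factor 2, fell from 28.7 and 34.1 to 8.60 and 9.23, and IRS2, an insulin receptor substrate, fell by 0.64.

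Of 17 FGF genes, FGF21 fell from 6.06 and 6.28 to 1.55 and 1.75, and FGF4 was listed at 0 in both December libraries and at 1.39 and 2.23 in February. Of 20 nuclear receptor genes, 3 rose and 1 fell. Of these 20% passed, against 11.8% of the FGF genes and 16.6% of all tested genes. PPARG, the regulator of fat and sebaceous cells, had 20.6 and 18.3 in December and 64.7 and 38.2 in February, and the oestrogen receptor gene ESR1 had 3.30 and 2.84 against 5.56 and 5.04. The retinoic acid receptor gene RARG fell from 67.0 and 59.7 to 43.7 and 37.5. None of 12 genes of prolactin receptor and JAK-STAT signalling passed by limma (4 at an unadjusted p below 0.05).

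**Figure D5:**
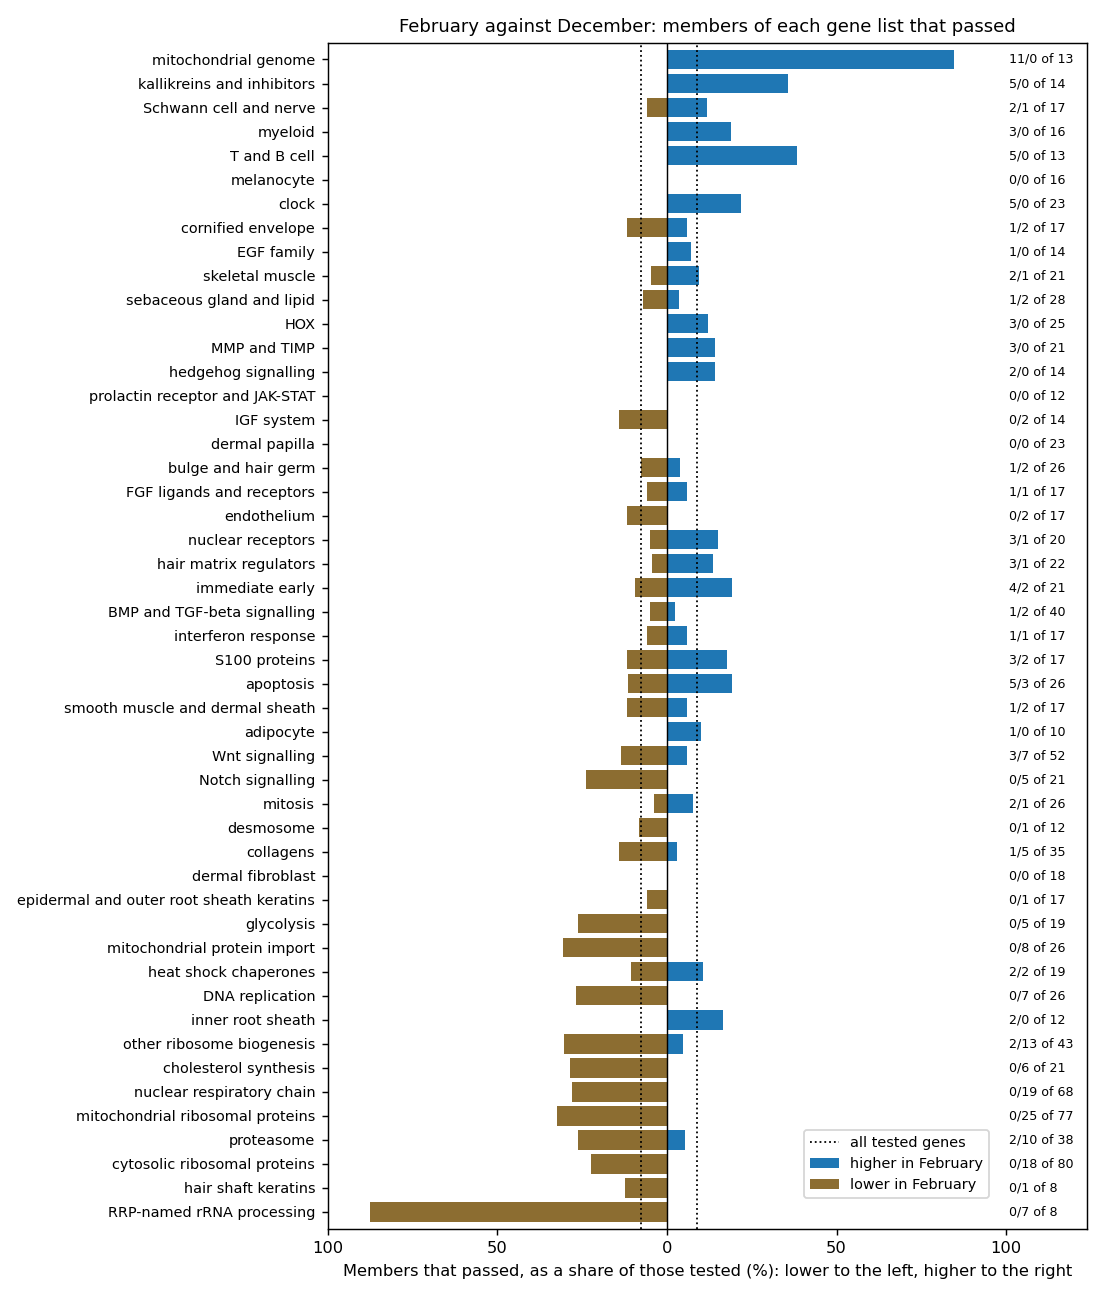
Share of the tested members of each gene list of at least 8 tested members that passed in February against December, higher to the right and lower to the left (%), with the counts at the right edge as higher/lower of tested. The dotted lines mark the shares of all tested genes, 8.90% higher and 7.69% lower; lists are ordered by median log2 difference.

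The 8 regulators of the cycle reported whatever their result did not pass. LHX2, a bulge transcription factor, had 32.0 and 27.6 in December and 53.6 and 44.2 in February (0.70 ± 0.23, adjusted p = 0.0623). PRLR, the prolactin receptor, had 59.8 and 56.0 against 115 and 82.5 (0.74 ± 0.24, adjusted p = 0.0576). For both genes the groups did not overlap, but both February libraries lay above both December libraries for 37.9% of all tested genes. MKI67, of dividing cells, had 15.4 and 11.4 against 16.6 and 17.1. LEF1 (0.23), SHH (0.26), BMP4 (-0.12), FGF5 (-0.18) and BMP2 (-0.22) differed by less than 0.3 on the log2 scale. None of 23 dermal papilla genes and none of 16 melanocyte genes passed by limma, with 2 and 3 at an unadjusted p below 0.05. Of 26 bulge and hair germ genes, TCF7L2 rose, and AXIN2 and the integrin gene ITGB1 (-0.62) fell. The share that passed was 11.5% here and 18.2% among the hair matrix regulators, against 16.6% of all tested genes. Among 22 regulators of the hair matrix, DLX3 (70.8 and 44.1 against 109 and 110) and PRDM1 (41.7 and 42.7 against 63.4 and 69.4) rose besides GATA3, and SELENBP1 fell from 185 and 242 to 89.1 and 55.8.

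Some genes of DNA replication (26.9% of those tested), mitosis (11.5%) and apoptosis (30.8%) passed, against 16.6% of all tested genes. Of 26 replication genes, 7 fell and 0 rose. MCM5, of the replicative helicase, had 26.3 and 27.6 in December and 10.9 and 9.48 in February (-1.32 ± 0.24, adjusted p = 0.0188), and MCM3, MCM6 and MCM7 fell by 0.71, 0.57 and 0.53. Of 26 mitosis genes, CDK1 fell (23.6 and 27.2 against 11.98 and 16.6), and CDKN3 (64.1 and 70.5 against 115 and 155) and AURKA (0.44) rose. Of 26 apoptosis genes, 5 rose and 3 fell. The risers included TP63, the regulator of stratified epithelium (297 and 240 against 578 and 483), and the survival genes BCL2 (22.7 and 30.5 against 43.0 and 49.9) and BCL2L1 (0.50). CASP6, an effector caspase, BAK1, which opens the outer mitochondrial membrane, and FADD, the death receptor adaptor, fell by 1.00, 0.73 and 0.93.

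Of 23 circadian clock genes, 5 rose and 0 fell, so 21.7% passed, against 16.6% of all tested genes. BHLHE40 had 27.7 and 21.1 in December and 57.6 and 46.0 in February, CIART had 17.5 and 19.6 against 43.7 and 38.8, and RORA had 73.2 and 74.5 against 137 and 106. The count was 2 after quantile normalization and 3 after scaling to the same sum. The hour of sampling is not given in the labels. Of 21 immediate early genes, 4 rose and 2 fell, so 28.6% passed, against 16.6% of all tested genes. EGR1 rose from 35.0 and 32.9 to 102 and 65.5, and EGR2, EGR3 and ZFP36 by 0.81, 0.75 and 1.08, while IER2 fell from 46.1 and 46.4 to 21.2 and 18.0 and JUN by 0.82.

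Lymphocyte and myeloid markers were higher in February in 5 and 3 members. Of 13 T and B cell genes tested, 5 rose and 0 fell (38.5% passed, against 16.6% of all tested genes). The summed value of all 18 listed genes, tested or not, was 54.8 to 58.8 in December and 86.0 to 106 in February. GZMA, of cytotoxic lymphocytes, had 27.0 and 24.5 against 42.7 and 57.9 (0.93 ± 0.18), and CD3D had 6.20 and 7.44 against 10.4 and 12.3. Of 16 myeloid genes tested, 3 rose and 0 fell (18.8% passed). All 17 listed genes, tested or not, had sums of 125.2 to 133 in December and 250 to 331 in February. The sums were 377 in the March female and 174 in the March male. CD74, the invariant chain of antigen presentation, had 63.2 and 57.2 against 208 and 147, and LAPTM5 had 10.6 and 8.90 against 32.6 and 24.1. No member of either list was at 0 in all 4 libraries. The part of these cells in other changes was not tested. MX2, an interferon-induced gene, rose from 19.5 and 20.7 to 41.1 and 52.0 and was also called in March (43.5 and 48.1). The sensor gene DDX58 fell by 0.63. The other 15 of 17 interferon genes did not pass, so 11.8% of the list did, against 16.6% of all tested genes.

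Of 17 Schwann cell and nerve genes, PMP22 rose from 36.5 and 43.3 to 92.9 and 90.3 with EGR2, and PRX fell by 0.71. The summed value of all 18 listed genes, tested or not, was 246 in both December libraries and 384 and 331 in February. Of 17 endothelial genes, CLDN5 (12.1 and 17.0 against 7.32 and 6.89) and VWF (-0.78) fell, and the sums overlapped, at 253 and 283 in December and 360 and 221 in February. Of 35 collagen genes, 5 fell and 1 rose, so 17.1% passed, near the 16.6% of all tested genes. The share was 17.6% for Schwann cell and nerve and 11.8% for endothelial genes. It was 14.3% for protease and inhibitor and 12% for HOX genes. The basement membrane genes COL4A1 (47.4 and 52.2 against 23.9 and 25.7), COL4A2 (-0.57) and COL18A1 (114 and 115 against 51.2 and 49.6) fell, as did COL16A1 (-0.97), and COL6A5 rose (1.31). None of 18 dermal fibroblast genes passed by limma (1 at an unadjusted p below 0.05). The matrix proteases MMP7 (3.78 and 5.89 against 23.5 and 14.4), MMP1 (0.77) and MMP12 (1.03) rose, and none of the 21 protease and inhibitor genes fell. Of 25 HOX genes, HOXA2 (2.33 and 2.59 against 5.91 and 5.91), HOXA3 (0.63) and HOXA4 (1.26) rose.

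Markers of muscle, fat and blood passed in few members. The share was 14.3% for skeletal muscle and 17.6% for smooth muscle and dermal sheath genes. It was 10% for adipocyte and 10.7% for sebaceous gland and lipid genes, against 16.6% of all tested genes. Of 21 skeletal muscle genes, NEB (9.49 and 8.85 against 17.4 and 16.6) and MYLPF (0.40 and 0.20 against 1.82 and 1.58) rose and TNNT1 (16.4 and 13.5 against 8.30 and 5.78) fell, with sums of 86.8 to 108 in December and 103 to 106 in February. Of 17 smooth muscle and dermal sheath genes, SYNPO2 rose (0.63), and CSPG4 (-0.79) fell with NOTCH3. PLIN1, the coat protein of lipid droplets, rose by 0.59 among 10 adipocyte genes. Of 28 sebaceous gland and lipid genes, PPARG rose, and FABP5 and DGAT2 fell by 1.05 and 0.64. None of 6 mast cell genes and none of 3 red blood cell genes passed by limma (1 and 1 at an unadjusted p below 0.05).

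The 104 changes also called in March comprise 75 genes with a name and 29 with a LOC number, and those named next were chosen for their calls in both months. Besides the RRP genes, 4 kallikreins, S100A7A, MX2, RPL22 and PAM16, they include the following genes. IL37, an anti-inflammatory cytokine of the interleukin 1 family, had 35.6 and 33.4 in December, 82.8 and 91.7 in February and 72.2 and 86.7 in March. SCNN1G, a subunit of the epithelial sodium channel, had 6.58 and 6.89, then 12.8 and 10.98, then 15.7 and 11.6. The peptidoglycan recognition gene PGLYRP3, the glucose transporter gene SLC5A1, the basement membrane gene FRAS1 and the neurotrophin receptor gene NTRK2 rose as well, as did LYPD2, CD177, FAM216B, MAGED1 and ANTXR1. MIF, a cytokine with tautomerase activity, fell from 484 and 437 to 175 and 193, and was 235 and 230 in March. PFDN5, a prefoldin subunit, fell from 253 and 307 to 111 and 130, and the peptidyl-prolyl isomerase PIN4 from 115 and 123 to 45.1 and 58.0. NTN1, the guidance factor netrin 1, fell from 20.5 and 19.1 to 11.4 and 11.2, and was 9.14 and 11.2 in March.

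At the other end, 26 of the 2671 February changes had an unadjusted p above 0.5 in March against December, 18 higher and 8 lower in February. The 18 include 5 of the 11 risers between KRT40 and KRT38. RBPMS2, FAM171B and ELL2 were the ones among them with a name other than a LOC number and a mean of at least 5. RBPMS2, an RNA-binding protein, had 4.23 and 3.07 in December, 11.4 and 9.37 in February and 6.70 and 2.67 in March. ELL2, an elongation factor, had 38.2 and 34.4, then 46.0 and 53.6, then 38.3 and 38.6. Among the falls, CCND1, the G1 cyclin, had 94.4 and 82.4 in December, 69.6 and 55.1 in February and 87.95 and 77.8 in March. TINAGL1, a matrix protein, had 14.5 and 15.4, then 10.3 and 9.86, then 15.3 and 12.8, and ACSS1, the mitochondrial acetyl-CoA synthetase, 10.5 and 9.30, then 7.29 and 6.0, then 9.95 and 9.59. CD93, of endothelium and myeloid cells, and INTS5, of the integrator complex, followed the same course. With the exception of LOC106503204, none of the 26 passed in March against February, so a return to the December level was not shown by the direct test.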

How the data were processed

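The authors deposited 1 table per library with 1 signal value per gene under a TPM heading. Library sums ran from 904623 to 1127797, so the deposited signal had been rescaled by steps not given in the sources used here. The submitters' processing notes name kallisto 0.46.1 and sleuth 0.30.0, and the genome build is not given in the sources used here. The plan allowed for counts, and since the values are not counts the limma branch was used. The authors' signal values were taken as log2(value + 1), which shrinks the changes of low genes. Tests covered the 16095 of 20326 genes that reached a value of 1 in 2 or more of the 12 libraries. The model, fitted with limma 3.58.1 (R 4.3.3), had 1 group per month, moderated variances, a mean-variance trend and Benjamini-Hochberg adjustment, and a gene passed at adjusted p < 0.05. Rose, fell, higher and lower refer to genes that passed. The method was tested on simulated data.

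Symbols were taken by gene number from a RefSeq table (assembly ARS1.2), which matched 20294 genes and left 32. The gene KRT15 is not reported here. No 2 libraries had equal values in more than 1.55% of genes. Replicate numbers mark sex and do not pair the samples. The replicate block is thus an adjustment for sex, and the error of the main fit holds the difference between the sexes. The compared months, the 52 gene lists and the naming rule were chosen with earlier results of these data known. The rule named the 12 largest rises and 12 largest falls among genes that passed with no overlap, a mean of at least 5 over the 4 libraries and no LOC number, 8 fixed genes, up to 4 passing members per list and direction with the highest means, the 5 largest rises and 5 largest falls with an unadjusted p above 0.5 in March, and genes that passed in March against February. List members given to complete a count (KLK13, RRP8, RRP9, COX2, ND3, RPL22, KRT14, TCHH, KRTAP11-1) were chosen after their values were seen. So were the genes named among the 104, LOC genes, RRN3 and RRS1. Lists share some members. Alternatives changed the added constant, the filter, the scaling, the moderation, the samples fitted and the replicate block, and left out each library in turn.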

Additional observations from a re-analysis of the deposited data

Results flagged for a closer look

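LOC106503204 was the gene whose February and March levels differed by the test of the difference, with March lower by 1.60 on the log2 scale (a log2 difference of -1.60). In FGF5, a growth factor that ends anagen, the female and male moved in opposite directions. Its February minus December log2 difference was -0.44 in the female and 0.0724 in the male, and March minus November had the same signs in each. That difference between the sexes was not tested.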

How the results depend on the processing

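The replicate block adjusts for sex. With it 2546 genes differed between February and December, and 91 of these changes were also called in March. March against February gave 1, March against November 2598 and December against November 0. Same-numbered samples did not all deviate together (correlations from -0.255 to 0.442), so the numbers do not pair the samples. The block ended 23 of the 174 named calls, and took the BMP and TGF-beta genes lower in February from 2 to 0. Scaling each library to the same sum gave 469 changes also called in March and 0 genes for March against February, and doing so without mitochondrial and ribosomal protein genes gave 159 also in March. Without the mean-variance trend March against February gave 3 genes. Leaving out 1 library at a time, the February against December count ran from 19 to 4468, the count also in March from 11 to 2330, March against February from 0 to 12, March against November from 25 to 4992 and December against November from 0 to 3. Leaving out both March libraries, an alternative chosen after seeing the data, gave 4456. Other alternatives kept these counts within 1.5 times. Of 174 named genes that passed, 168 lost their call in at least 1 of 24 alternatives, with a median of 4, and none changed direction. Quantile normalization ended 19 of these calls, scaling to the same sum 30 and fitting the 4 samples alone 36. Without a filter the median difference of all genes was 0.16 in place of 0.07. Read depth is unknown, so counting error could not be separated from the spread between libraries, and with 2 libraries a month the error rests on all 6 months.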

Other observations

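Some of the largest differences were in genes that carry LOC numbers, chosen here after their values were seen. LOC102172558 had 0 and 3.70 in December, 329 and 189 in February and 425 and 479 in March, and was called in both months. LOC102168680 had 95.4 and 84.7 in December, 1.54 and 0.76 in February and 0.46 and 0.47 in March. LOC102176710 had 97.3 and 61.2, then 1.09 and 0.67, then 0.80 and 2.20. Both of the latter were also low in May, at 0.74 and 0.31 for LOC102168680 and 0.91 and 1.66 for LOC102176710, and lay between 28.5 and 66.7 in September and November. RRNAD1, a gene next to the RRP genes in alphabetical order, fell with them, from 7.97 and 6.0 to 2.26 and 1.88, with 1.96 and 2.85 in March. RRN3, the gene for an RNA polymerase I factor, had 33.3 and 35.1 in December and 30.9 and 32.2 in February and did not pass.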
